A study of Mus musculus with 15 samples.

Results

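The genes described here are the amino acid transporter families Slc1a, Slc3a, Slc7a, Slc36a, Slc38a and Slc43a of the mouse. They were taken by symbol, as protein-coding genes whose name starts with a family name followed by a number, which gave 43 of the 39827 genes read from the count table. There are 7 in the Slc1a family, 2 in Slc3a, 16 in Slc7a, 4 in Slc36a, 11 in Slc38a and 3 in Slc43a. Slc7a6os meets the naming rule as a neighbour of Slc7a6 and is no carrier. RNA-seq of leukemic T cells from spleen gave their RNA levels in 15 libraries, 3 in each of 5 groups. All leukemias came from bone marrow progenitors (GFP+, Lineage-, cKit+, Sca1+) transduced with ΔE-NOTCH1, a shortened NOTCH1 active in the absence of ligand, and grew in lethally irradiated C57BL/6J mice. The groups were the Bcat1 wild-type leukemia WT0 given the BCAT1 inhibitor ERG-245, the leukemias KO7 and KO3, both Bcat1 knock-out and given PBS, the wild-type leukemia WT6 given PBS, and WT0 given PBS. ERG-245 was injected intraperitoneally in 3 doses of 30 mg/kg, 8 h apart. The sample titles name PBS for WT0 only, and those of WT6, KO7 and KO3 name no treatment. The labels do not say whether the 3 libraries of a group came from separate mice, nor which allele makes the knock-out, and each number is read here as naming 1 leukemia.

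Amino acids cross membranes by exchange, by cotransport with sodium or protons, or down their gradient. Slc7a5 and its heavy chain Slc3a2 form the exchanger that brings leucine, isoleucine and valine, the substrates of BCAT1, into dividing T cells while glutamine leaves. Slc1a5, Slc38a1 and Slc38a2 load cells with glutamine and other neutral amino acids, and Slc38a9 and Slc36a1 sit on the lysosome, where amino acids are sensed by the kinase complex mTORC1.

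Libraries held 17441292 to 28902573 counts, and 0.185% to 0.239% of these fell on the 43 genes. Of them, 29 passed the low-count filter, as did 15948 genes in all, and 14 did not. The targeted gene Bcat1 averaged 13.3 ± 0.774 CPM in WT0 with ERG-245, 2.09 ± 0.596 CPM in KO7, 6.95 ± 0.844 CPM in KO3, 35.2 ± 0.416 CPM in WT6 and 17.8 ± 0.955 CPM in WT0 with PBS (CPM are counts relative to a library total adjusted by TMM, ± SD, n = 3 each). It was lowest in both knock-outs. The T cell label was checked on 6 T cell markers, all found in every group, with a summed level of 2467 CPM in WT0 with ERG-245, 2998 CPM in KO7, 4108 CPM in KO3, 3621 CPM in WT6 and 3401 CPM in WT0 with PBS. The libraries also held RNA of other spleen cells. The summed level of 12 erythroid markers was 44780 CPM in WT0 with ERG-245, 50970 CPM in KO7, 9927 CPM in KO3, 10670 CPM in WT6 and 35920 CPM in WT0 with PBS. Each group had its own leading T cell receptor beta V segment, at 39.7% to 85.6% of the V segment counts, and in WT0 it was Trbv16 with ERG-245 and Trbv17 with PBS. In such bulk samples, fewer cells of a type and less RNA per cell cannot be told apart.

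Per kilobase of merged exons, Slc1a5, the sodium-dependent neutral amino acid exchanger that carries glutamine, had the highest level of the 43 genes in every group. It reached 93.7 ± 1.96 CPM per kb in WT0 with ERG-245, 95.7 ± 0.167 in KO7, 78.0 ± 3.11 in KO3, 68.8 ± 1.17 in WT6 and 120.8 ± 0.827 in WT0 with PBS (SD, n = 3). Slc43a3, whose human counterpart carries purine nucleobases, and Slc43a1, a uniporter of leucine and other large neutral amino acids, came next in WT0 with ERG-245 (76.4 and 61.8 CPM per kb) and in WT0 with PBS (63.8 and 62.8). With PBS, Slc43a3 and Slc43a1 differed by less than their SDs of 1.18 and 1.34. In KO3 and WT6, Slc7a6os ranked second per kilobase and the sodium-coupled glutamine carrier Slc38a2 came after it, whereas Slc43a1 stood at 31.5 CPM per kb in KO3 and at 15.3 in WT6. Slc7a5 ranked between 4 and 6 in all groups, at 52.4 CPM per kb in WT0 with ERG-245, 34.7 in KO7, 29.3 in KO3, 29.8 in WT6 and 44.7 in WT0 with PBS. Its heavy chain Slc3a2 varied between 24.9 CPM per kb in KO3 and 31.9 in KO7.

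Most of the 14 genes below the filter are carriers known from kidney, gut, brain or retina. Slc7a12 and Slc7a15 had 0 counts in all 15 libraries. Among the other 12, the highest level in any library was 0.506 CPM for the proton-coupled carrier Slc36a2, 0.432 CPM for Slc7a10, an exchanger of small neutral amino acids, and 0.423 CPM for Slc36a3. The renal cystine exchanger Slc7a9 had at most 1 count per library. Slc38a3, Slc38a4, Slc38a8 and Slc38a11 of the Slc38a family, Slc1a6 and Slc1a7 of the glutamate carriers, and Slc7a13 and Slc7a14 had at most 6 counts in a library.

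**Figure D1:**
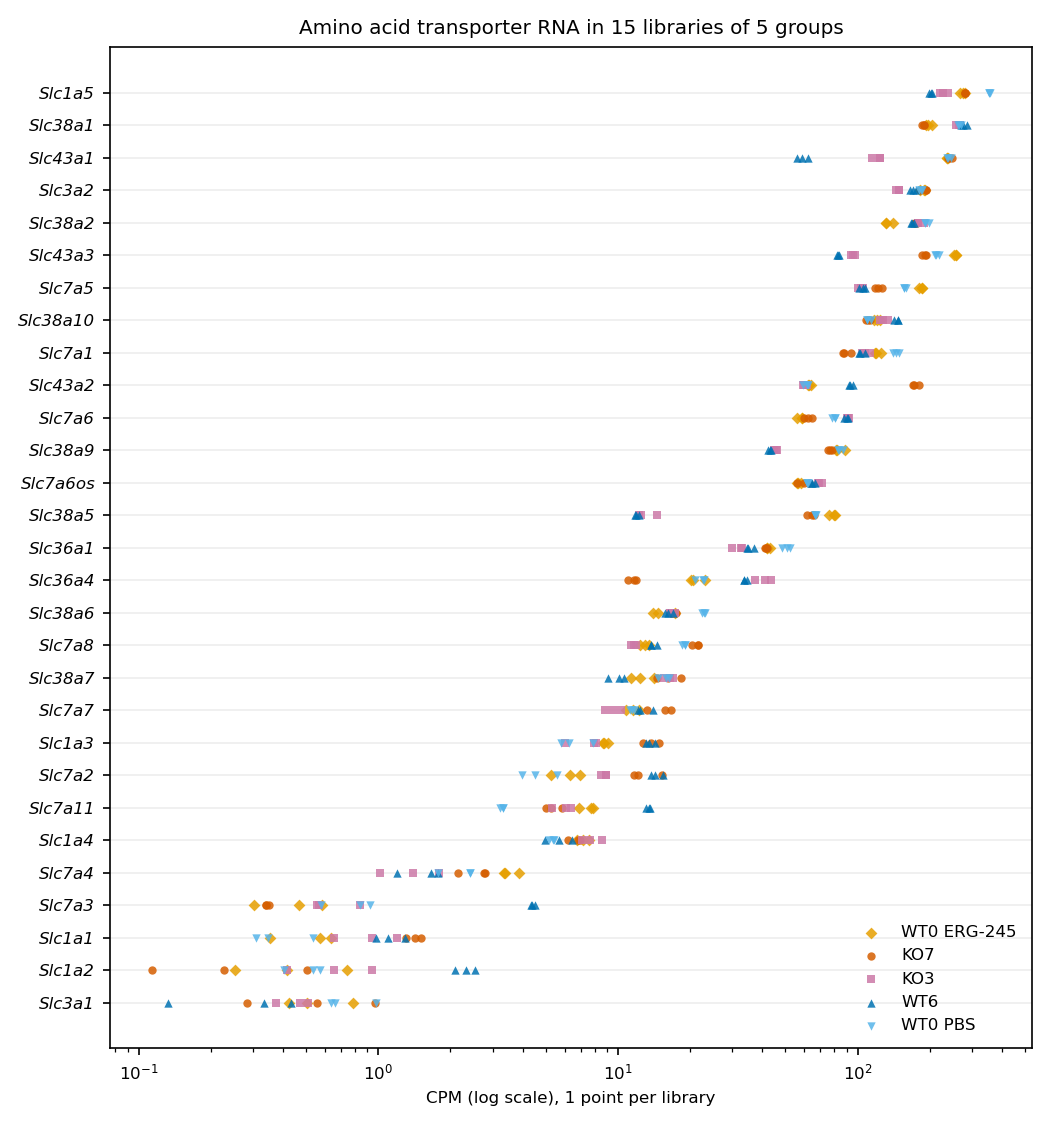
Level of the 29 transporter genes that passed the filter, in CPM on a log scale, with 1 point per library, coloured by group (3 libraries each) and ordered by mean. Libraries of a group lie close together, WT6 stands low for Slc43a1 and high for Slc7a3 and Slc1a2, and KO7 stands high for Slc43a2 and low for Slc36a4.

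Promoter windows of RefSeq (GRCm38.p6, from 250 bases before to 50 bases after a transcript start) were found for 32 of the 43 genes and read for 4 short motifs on both strands. The 3 shown were chosen after their values were seen, as carriers at 1 CPM or more in every group that hold a match and were called at least 2-fold apart between groups. Capitals mark the matches, which are CACGTG in Slc43a1 and Slc38a5, a reverse-strand match to TGACNNNGC in Slc43a1, and TGATGNAA on both strands in Slc7a11. CACGTG, an E-box, is a motif bound by MYC and by the lysosomal gene regulators TFEB and TFE3. TGACNNNGC is the core bound by NRF2, and TGATGNAA the composite element bound by ATF4 and a C/EBP partner.
Slc43a1 (chr2:84840073-84840372, plus strand): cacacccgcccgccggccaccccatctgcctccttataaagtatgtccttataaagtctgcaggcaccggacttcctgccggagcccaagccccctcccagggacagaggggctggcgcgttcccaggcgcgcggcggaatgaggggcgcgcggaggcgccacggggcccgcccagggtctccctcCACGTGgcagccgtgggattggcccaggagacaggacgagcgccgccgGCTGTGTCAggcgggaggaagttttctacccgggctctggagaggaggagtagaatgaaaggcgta
Slc38a5 (chrX:8271131-8271430, plus strand): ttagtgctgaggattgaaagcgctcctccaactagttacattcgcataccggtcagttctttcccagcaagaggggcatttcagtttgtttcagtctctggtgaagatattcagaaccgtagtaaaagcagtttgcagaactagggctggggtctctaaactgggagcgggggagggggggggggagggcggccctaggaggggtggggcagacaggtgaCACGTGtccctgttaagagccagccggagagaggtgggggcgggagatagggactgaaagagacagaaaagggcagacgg
Slc7a11 (chr3:50443564-50443863, minus strand): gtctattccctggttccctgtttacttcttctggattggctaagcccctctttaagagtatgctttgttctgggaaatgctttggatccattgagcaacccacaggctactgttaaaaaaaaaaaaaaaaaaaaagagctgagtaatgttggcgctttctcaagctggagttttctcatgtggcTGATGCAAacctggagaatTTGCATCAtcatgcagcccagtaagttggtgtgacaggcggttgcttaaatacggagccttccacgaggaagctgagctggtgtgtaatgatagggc
In Slc43a1 the E-box starts 64 bases and the TGACNNNGC match 16 bases before the transcript start, and in Slc38a5 the E-box starts 30 bases before it. The TGATGNAA matches of Slc7a11 start 66 and 47 bases before the transcript start, facing each other. Of all 32851 windows, 7.15% hold CACGTG, 12.4% TGACNNNGC, 3.97% TGATGNAA and 11.2% the GATA factor motif AGATAA. The 32 genes have 43 windows, some of which overlap and share a match. Of these windows, 7 hold CACGTG (in 7 genes), 6 TGACNNNGC (5 genes), 4 TGATGNAA (3 genes) and 5 AGATAA (4 genes). The windows of Slc43a1 and Slc38a5 hold no AGATAA. Other forms of a GATA factor motif, and bases outside the windows, were not searched. A match describes the letters in a window and shows no binding.

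The first comparison asked how the transporter genes differed between WT0 leukemia given ERG-245 and the same leukemia number given PBS. The groups have different leading V segments (Trbv16 with ERG-245 and Trbv17 with PBS), so treatment and a difference between leukemias cannot be told apart here. Slc7a11, the cystine-glutamate exchanger that supplies cysteine for glutathione, was the only one of the 29 genes called at least 2-fold apart. The glutamine carriers Slc1a5, Slc38a1 and Slc38a2 were lower with ERG-245, and Slc7a5 was higher. Of the 29 genes, 9 were higher and 10 lower at an adjusted p under 0.05 (edgeR quasi-likelihood test, Benjamini-Hochberg over all genes), with a median log2 difference of -0.02. Among all 15948 genes tested, 65.8% were called, 33% higher and 32.8% lower, with a median of 0, and 5.67% were at least 2-fold higher and 6.05% at least 2-fold lower.

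Slc7a11 had 7.89, 6.88 and 7.70 CPM with ERG-245, against 3.33, 3.30 and 3.23 CPM with PBS. All 3 ERG-245 libraries lay above all PBS libraries, by a log2 difference of 1.18 (SE 0.13, edgeR adjusted p = 2.1e-13). ATF4 and a C/EBP partner were named above for the TGATGNAA matches in the Slc7a11 window. Atf4 RNA did not pass (log2 -0.01, edgeR adjusted p = 0.838), and the RNA of the C/EBP partner gene Cebpg fell (log2 -0.79, edgeR adjusted p = 4.73e-29). The C/EBP gene Cebpb did not pass (log2 0.26, edgeR adjusted p = 0.0561). The list of regulators described below had 8 genes higher and 8 lower in this comparison. Among them Trib3 (log2 1.56, at 3.58 and 1.21 CPM) and Nupr1 (log2 0.82) rose, and Atf5 (log2 -0.37) and Ddit3 (log2 -0.25) fell. Protein of these factors was not measured, and their part in the Slc7a11 difference was not tested. Slc38a2, a glutamine and alanine carrier known to be induced when amino acids run short, had 132, 140.0 and 131 CPM with ERG-245, against 198, 190.5 and 191 CPM with PBS. The groups did not overlap, and Slc38a2 fell by 0.52 on the log2 scale (SE 0.029, edgeR adjusted p = 4.92e-27). The sodium-coupled glutamine carrier Slc38a1 had 204, 193 and 197 CPM with ERG-245, against 270.1, 265 and 262 CPM with PBS, again without overlap (log2 -0.43, SE 0.026, edgeR adjusted p = 1.75e-24). For Slc1a5 the values were 269, 276 and 280.2 CPM with ERG-245 and 357, 354 and 352 CPM with PBS (log2 -0.37, SE 0.025, edgeR adjusted p = 1.86e-22). Of the 5 glutamine and neutral carriers measured, 3 fell and 2 rose. The risers were Slc38a5, which carries glutamine, histidine and serine, with a log2 difference of 0.24, and the serine and alanine exchanger Slc1a4, with 0.42.

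Slc7a5 had 181, 185 and 186 CPM with ERG-245, against 156, 156 and 159 CPM with PBS. It rose in all 3 libraries (log2 0.23, SE 0.029, edgeR adjusted p = 1.01e-10), while its partner Slc3a2, at 188 ± 4.94 CPM with ERG-245 and 183 ± 2.93 CPM with PBS, did not pass (log2 0.03, edgeR adjusted p = 0.284). Slc7a8, another exchanger of large neutral amino acids that pairs with Slc3a2, fell (log2 -0.54, edgeR adjusted p = 1.23e-09). The uniporters Slc43a1 (log2 -0.02) and Slc43a2 (log2 0.04) did not pass, with overlapping libraries. Slc7a6, a y+L exchanger of cationic for neutral amino acids, fell (log2 -0.47, edgeR adjusted p = 3.99e-18), and its relative Slc7a7 did not pass (log2 0.01).

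Of the 4 lysosomal and vacuolar carriers, Slc36a1, a proton-coupled exporter of small amino acids, fell (log2 -0.26), as did Slc38a7, in human cells the lysosomal glutamine exporter (log2 -0.31). Slc38a9, the lysosomal arginine sensor of mTORC1, had 81.0, 88.3 and 81.9 CPM with ERG-245, against 86.5, 82.7 and 83.5 CPM with PBS, which overlapped (log2 -0.01, edgeR adjusted p = 0.852). Among cationic carriers, the arginine and lysine carrier Slc7a1 fell (log2 -0.26), and the arginine carrier Slc7a2 and its relative Slc7a4, whose substrate is not established, rose (log2 0.39 and 0.68). The glutamate carrier Slc1a3 rose (log2 0.42), and Slc43a3 rose as well (log2 0.26, edgeR adjusted p = 1.09e-14).

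Markers of other cells differed between these groups too. The erythroid sum was 42730 to 46470 CPM with ERG-245 and 35140 to 36330 CPM with PBS, with 10 of 12 markers higher. Of 6 plasma cell markers 5 were higher, with sums of 3544 to 3614 CPM with ERG-245 and 1337 to 1354 CPM with PBS, and of 7 neutrophil markers 6 were lower, with sums of 2.99 to 4.43 CPM with ERG-245 and 66.0 to 67.7 CPM with PBS. Of 6 T cell markers 5 were lower, with sums of 2458 to 2477 CPM with ERG-245 and 3387 to 3417 CPM with PBS. All 6 platelet markers were at least 2-fold lower, with sums of 20.01 to 23.75 CPM with ERG-245 and 130.8 to 140.7 CPM with PBS, and all 6 B cell markers were lower, with sums of 35.4 to 39.0 CPM with ERG-245 and 75.7 to 80.4 CPM with PBS. Of 10 macrophage markers 7 were higher and 1 lower, with sums of 1405 to 1419 CPM with ERG-245 and 991.6 to 1013 CPM with PBS, and all 6 stroma markers were higher. No marker of these lists was at 0 counts in either group, and their part in the transporter differences was not tested. For the WT0 libraries with PBS, the header of the count table carries DMSO in the names of the alignments, where the labels say PBS.

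KO7 was next set against WT6, both given PBS, to compare a Bcat1 knock-out with a wild-type leukemia. All 4 carriers of large neutral amino acids, Slc7a5, Slc7a8, Slc43a1 and Slc43a2, were higher in KO7. The largest rises were those of Slc38a5 (5.37-fold), Slc43a1 (4.13-fold) and Slc43a3 (2.3-fold), and Slc7a3, Slc1a2, Slc36a4 and Slc7a11 were at least 2-fold lower. In all, 13 of the 29 genes were higher and 9 lower, with a median log2 difference of 0.22, where 68.9% of all genes tested were called, 32.2% higher and 36.7% lower, with a median of -0.03. At least 2-fold, 3 were higher and 4 lower, against 9.29% and 8.17% of all genes.

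Slc43a1 had 242, 247 and 239 CPM in KO7, against 55.9, 62.0 and 58.5 CPM in WT6. Every KO7 library lay far above every WT6 library (log2 2.05, SE 0.032, edgeR adjusted p = 1.71e-63). Slc43a2, the other uniporter, had 179.8, 172 and 171 CPM in KO7, against 92.6, 96.0 and 91.8 CPM in WT6. These groups were also apart (log2 0.90, SE 0.031, edgeR adjusted p = 3.75e-40). The exchanger Slc7a8 had 21.7, 21.6 and 20.3 CPM in KO7, against 14.6, 13.8 and 13.8 CPM in WT6 (log2 0.59, SE 0.069, edgeR adjusted p = 5.81e-12). Slc7a5 differed least of the 4, with 126, 122 and 118 CPM in KO7 and 101, 106 and 107 CPM in WT6, and still without overlap (log2 0.23, SE 0.031, edgeR adjusted p = 1.47e-09). Slc3a2 rose by a log2 difference of 0.15 (edgeR adjusted p = 2.23e-06).

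Among glutamine and neutral carriers, Slc38a5 had 65.7, 61.8 and 64.5 CPM in KO7, against 11.7, 11.9 and 12.2 CPM in WT6. Slc38a5 was thus higher in KO7 (log2 2.42, SE 0.055, edgeR adjusted p = 1.38e-52). The promoter window of Slc38a5 holds an E-box, as do 7.15% of all windows, and a part of that match was not tested. Slc1a5 rose by a log2 difference of 0.48 and Slc38a1 fell by 0.56 on that scale, whereas Slc38a2 (log2 0.04) and Slc1a4 (log2 0.24) did not pass. Slc43a3 had 193, 192 and 186 CPM in KO7, against 83.5, 82.2 and 82.7 CPM in WT6 (log2 1.20, SE 0.029, edgeR adjusted p = 2.03e-50). It lies near Slc43a1 on chromosome 2, from 84936545 to 84958509, with Slc43a1 from 84838855 to 84863586 (GRCm38).

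Lysosomal carriers split. Slc38a9 (log2 0.84), Slc38a7 (log2 0.72) and Slc36a1 (log2 0.22) rose. Slc36a4, a carrier of proline and tryptophan, had 11.9, 11.1 and 11.6 CPM in KO7, against 33.5, 34.7 and 33.6 CPM in WT6. Slc36a4 was thus lower in KO7 (log2 -1.55, SE 0.069, edgeR adjusted p = 2.97e-33).

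The cystine exchanger Slc7a11 had 5.28, 5.85 and 5.00 CPM in KO7, against 13.5, 13.1 and 13.6 CPM in WT6 (log2 -1.31, SE 0.10, edgeR adjusted p = 9.91e-20). The groups did not overlap. Slc7a3, a cationic carrier, had 0.352, 0.341 and 0.341 CPM in KO7, against 4.39, 4.52 and 4.34 CPM in WT6 (log2 -3.66, SE 0.27, edgeR adjusted p = 1.59e-20). The glutamate carrier Slc1a2, best known from astrocytes, had 0.502, 0.114 and 0.227 CPM in KO7, against 2.10, 2.32 and 2.52 CPM in WT6 (log2 -2.96, SE 0.35, edgeR adjusted p = 1.09e-11). Both genes were low throughout, and 19 counts of Slc7a3 and 16 of Slc1a2 stand behind the 3 KO7 libraries. Slc7a1 and Slc7a6 fell (log2 -0.20 and -0.54) and Slc7a4 rose (log2 0.72).

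Erythroid, macrophage and plasma cell markers differed between KO7 and WT6 too. All 12 erythroid markers were at least 2-fold higher in KO7, with sums of 49960 to 51770 CPM in KO7 and 10130 to 11680 CPM in WT6, as were Slc43a1, Slc38a5 and Slc43a3. All 10 macrophage markers were higher in KO7, with sums of 3341 to 3358 CPM in KO7 and 1488 to 1550 CPM in WT6, as were Slc43a2, Slc7a7 and Slc7a8. With ERG-245 in WT0 the macrophage sums were higher too, whereas Slc43a2 and Slc7a7 did not pass and Slc7a8 fell. Of 6 plasma cell markers 5 were lower, with sums of 4106 to 4174 CPM in KO7 and 8426 to 8782 CPM in WT6, and all 7 neutrophil, all 6 B cell and all 6 T cell markers were lower, the T cell markers by less than 2-fold. No marker of these lists was at 0 counts in either group, and their part in the transporter differences was not tested.

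**Figure D2:**
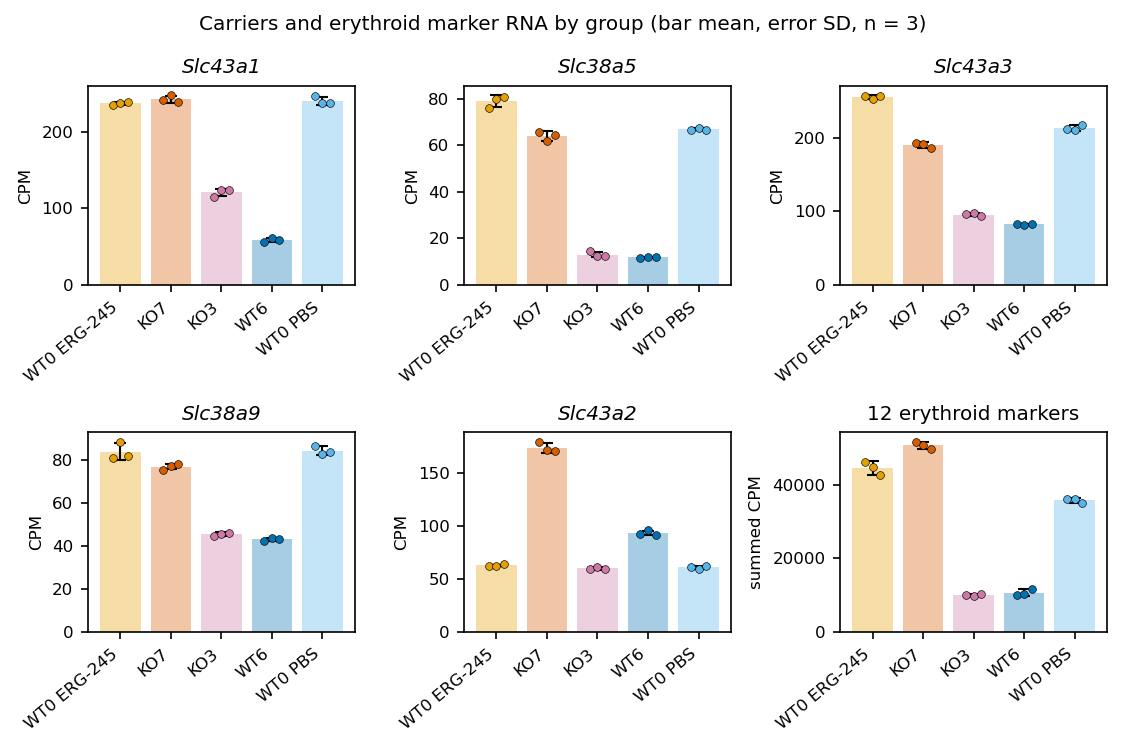
Level of Slc43a1, Slc38a5, Slc43a3, Slc38a9 and Slc43a2, and the summed level of 12 erythroid markers, in CPM by group, with bars for means, error bars for SD (n = 3) and 1 point per library. The first 4 carriers and the markers are lower in KO3 and WT6 than in the other groups, and Slc43a2 is highest in KO7.

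The other knock-out, KO3, was set against the same WT6 libraries, so the WT6 values enter both comparisons. Here too, genotype and other differences between the leukemias cannot be told apart. Slc43a1 was again higher, at 2.06-fold, and Slc7a3, Slc1a2 and Slc7a11 were lower, while Slc43a2 and Slc7a8 were lower and Slc7a5 and Slc38a5 did not pass. Here 8 of the 29 genes were higher and 12 lower, with a median log2 difference of -0.02, where 59.7% of all genes tested were called, 27.7% higher and 32% lower, with a median of -0.02. At least 2-fold, 1 was higher and 3 lower, against 4.04% and 7.46% of all genes.

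Slc43a1 had 115, 124 and 124 CPM in KO3, against the WT6 levels given above, with all KO3 libraries higher (log2 1.04, SE 0.034, edgeR adjusted p = 2.28e-41). Slc43a2 had 59.8, 61.7 and 59.0 CPM in KO3, all below the WT6 libraries (log2 -0.64, SE 0.035, edgeR adjusted p = 3.27e-27). Slc7a5 had 103, 101 and 105 CPM in KO3, which overlapped WT6 (log2 -0.02, edgeR adjusted p = 0.597). Its heavy chain Slc3a2 fell, with 149, 144 and 149 CPM in KO3, against 175, 171 and 166 CPM in WT6 (log2 -0.21, SE 0.028, edgeR adjusted p = 5.48e-10). So of the 4 large neutral amino acid carriers 1 was higher and 2 were lower in KO3.

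Slc38a5 had 14.5, 12.5 and 12.3 CPM in KO3, above WT6 by a difference that did not pass (log2 0.13, edgeR adjusted p = 0.107). Among the other glutamine and neutral carriers, Slc1a4 (log2 0.46), Slc1a5 (log2 0.18) and Slc38a2 (log2 0.10) rose and Slc38a1 fell (log2 -0.07, edgeR adjusted p = 0.0111). That Slc38a1 call was lost when only these 6 libraries were fitted (log2 -0.05, edgeR adjusted p = 0.0832), and also without the libraries numbered 2 or those numbered 3.

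Slc7a11 had 5.29, 6.07 and 6.37 CPM in KO3, all below WT6 (log2 -1.18, SE 0.096, edgeR adjusted p = 2.47e-18). Slc7a3 had 0.566, 0.840 and 0.553 CPM in KO3 (log2 -2.75, SE 0.23, edgeR adjusted p = 5.58e-18) and Slc1a2 had 0.944, 0.654 and 0.415 CPM (log2 -1.77, SE 0.28, edgeR adjusted p = 1.03e-07). All of these libraries lay below WT6, which for Slc7a3 and Slc1a2 was a condition of their choice. The arginine carrier Slc7a2 and the glutamate carrier Slc1a3 fell as well (log2 -0.72 and -0.90). Of the lysosomal carriers, Slc38a7 rose (log2 0.72), Slc36a4 rose (log2 0.26), Slc36a1 fell (log2 -0.15, a call lost without the libraries numbered 1) and Slc38a9 did not pass (log2 0.08, edgeR adjusted p = 0.0841).

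Erythroid markers differed little here. Their sums were 9622 to 10160 CPM in KO3 and 10130 to 11680 CPM in WT6, with 5 of 12 higher, 3 lower and none past 2-fold. Of 6 plasma cell markers 5 were lower, with sums of 2925 to 2975 CPM in KO3 and 8426 to 8782 CPM in WT6, and all 7 neutrophil markers were lower, with sums of 169.1 to 173.6 CPM in KO3 and 310.0 to 331.8 CPM in WT6. All 6 B cell markers were lower as well, with sums of 64.8 to 65.5 CPM in KO3 and 122.8 to 127.2 CPM in WT6. Slc7a11, Slc7a3 and Slc1a2 were lower in KO3 as well. With ERG-245 in WT0, Slc7a11 was higher, as were plasma cell marker sums, whereas neutrophil and B cell marker sums were lower. Of 10 macrophage markers 6 were lower and 1 higher, with sums of 1266 to 1285 CPM in KO3 and 1488 to 1550 CPM in WT6. Slc43a2, Slc7a7 and Slc7a8 were lower in KO3 too. Of 6 T cell markers 4 were higher and 2 lower, with sums of 4072 to 4145 CPM in KO3 and 3590 to 3670 CPM in WT6. No marker was at 0 counts in either group, and their part was not tested.

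**Figure D3:**
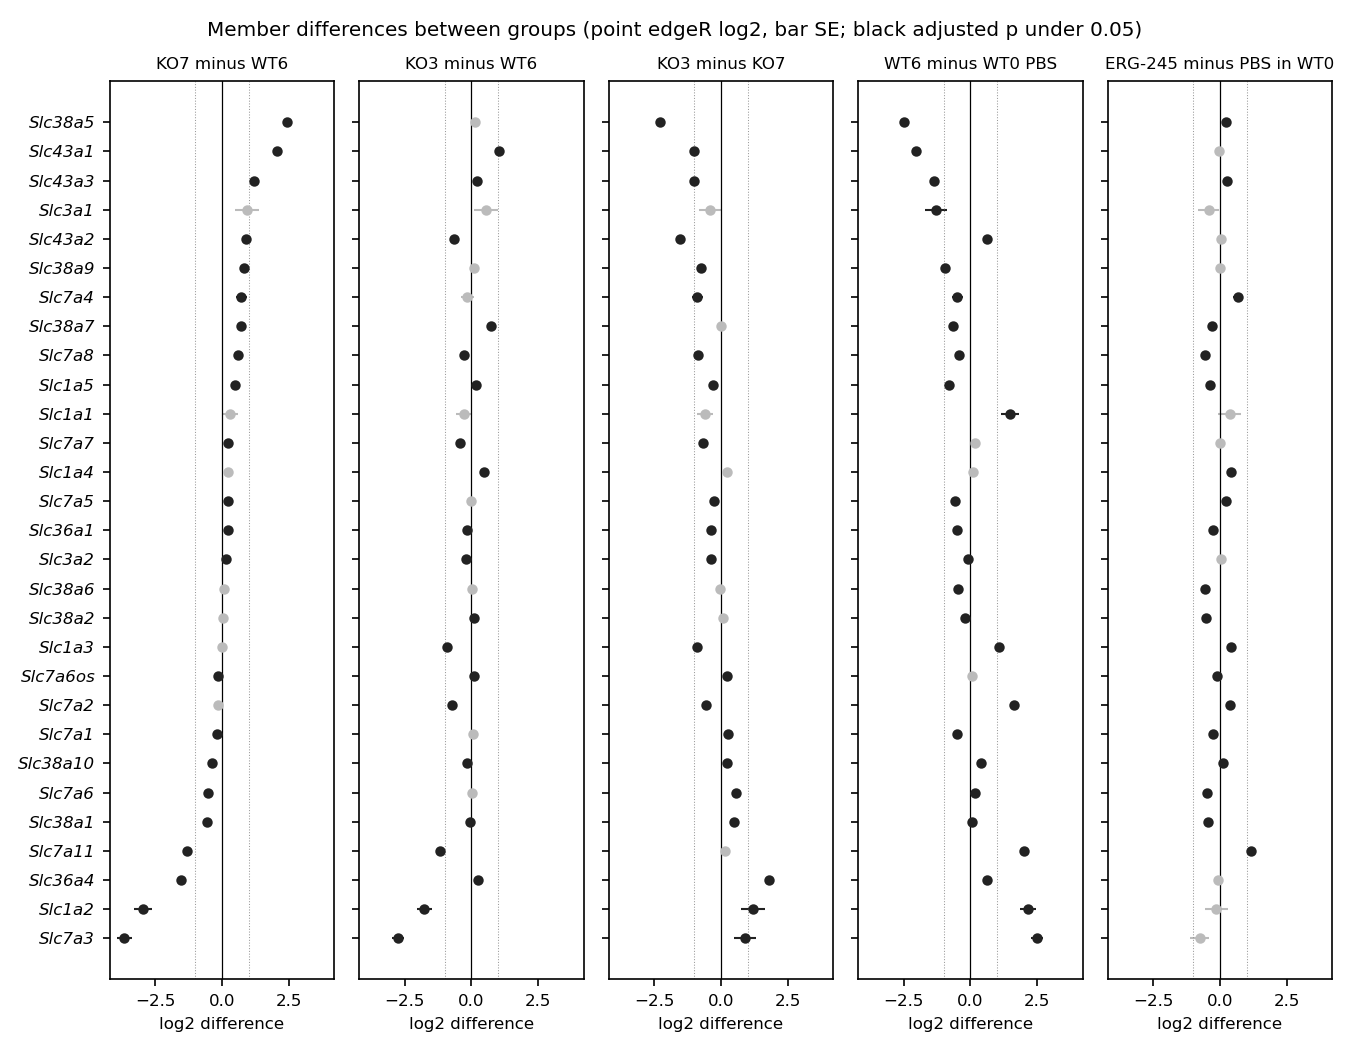
Log2 differences of the 29 tested transporter genes from edgeR in 5 comparisons, with SE bars, black where the adjusted p is under 0.05, and dotted lines at 2-fold. Slc43a1 and Slc43a3 are above 0 in KO7 and in KO3 against WT6, and Slc43a2 and Slc36a4 have opposite signs in these comparisons. With ERG-245, only Slc7a11 lies past a dotted line.

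The knock-out leukemias were then compared with each other, which shows how far 2 leukemias of 1 genotype differ. All 4 large neutral amino acid carriers were lower in KO3 than in KO7. The widest differences were those of Slc38a5 (4.89-fold lower), Slc36a4 (3.52-fold higher) and Slc43a2 (2.9-fold lower). Of the 29 genes, 8 were higher and 14 lower in KO3, with a median log2 difference of -0.30, where 70.7% of all genes tested were called, 36.1% higher and 34.6% lower, with a median of 0.01. At least 2-fold, 2 were higher and 3 lower, against 7.29% and 12.3% of all genes.

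Slc43a2 had a log2 difference of -1.54 (SE 0.034, edgeR adjusted p = 4.68e-53) and Slc7a8 of -0.87 (SE 0.074, edgeR adjusted p = 1.09e-17). Slc43a1 was 2.01-fold lower (SE 0.030 on the log2 scale, edgeR adjusted p = 1.28e-44). Slc7a5 differed by -0.25 (SE 0.032, edgeR adjusted p = 2.1e-10). Slc38a5, with 13.1 ± 1.22 CPM in KO3 and 64.0 ± 2.03 CPM in KO7, differed by -2.29 (SE 0.056, edgeR adjusted p = 4.11e-50). Slc36a4, with 40.7 ± 3.09 CPM in KO3 and 11.5 ± 0.429 CPM in KO7, differed by 1.82 (SE 0.068, edgeR adjusted p = 1.02e-37). No library of KO3 overlapped one of KO7 for these genes, which for Slc38a5 and Slc36a4 was a condition of their choice. Slc38a1 (log2 0.49), Slc7a6 (log2 0.56) and Slc7a1 (log2 0.27) were higher in KO3, and Slc38a2 (log2 0.06, edgeR adjusted p = 0.0539) and Slc7a11 (log2 0.14, edgeR adjusted p = 0.303) did not pass. All 12 erythroid and all 10 macrophage markers were at least 2-fold lower in KO3, with macrophage sums of 1266 to 1285 CPM in KO3 and 3341 to 3358 CPM in KO7, and none at 0 counts. All 6 T cell, all 6 B cell and all 7 neutrophil markers were higher in KO3. Their part was not tested.

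For the same reason WT6 was set against WT0, both wild type and given PBS. Of the 29 genes, 11 were higher and 15 lower in WT6, with a median log2 difference of -0.10, where 72.5% of all genes tested were called, 36.8% higher and 35.6% lower, with a median of 0. At least 2-fold, 6 were higher and 4 lower, against 9.15% and 9.74% of all genes. The lower ones were Slc38a5 (5.6-fold), Slc43a1 (4.1-fold), Slc43a3 (2.58-fold) and the heavy chain Slc3a1, and the higher ones were Slc7a3 (5.71-fold), Slc1a2 (4.47-fold), Slc7a11 (4.05-fold), Slc7a2 (3.08-fold), Slc1a1 and Slc1a3.

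Slc43a1 had 58.8 ± 3.06 CPM in WT6 and 240.5 ± 5.13 CPM in WT0 with PBS (log2 -2.04, SE 0.032, edgeR adjusted p = 1.21e-63). Slc7a5 had 105 ± 2.95 CPM in WT6 and 157 ± 1.93 CPM in WT0 with PBS (log2 -0.59, SE 0.030, edgeR adjusted p = 6.64e-30). Slc1a5, the carrier highest per kilobase, had 202 ± 3.44 CPM in WT6 and 354 ± 2.42 CPM in WT0 with PBS (log2 -0.81, SE 0.025, edgeR adjusted p = 8.16e-44). All 3 glutamate carriers that were measured, Slc1a1, Slc1a2 and Slc1a3, were at least 2-fold higher in WT6. Of these, Slc1a1 (1.12 CPM in WT6 and 0.396 CPM in WT0 with PBS) and Slc1a2 (2.31 and 0.503 CPM) were low. In WT0 with PBS they rest on 25 and 32 counts over the 3 libraries. For Slc7a11 the means were 13.4 ± 0.267 CPM in WT6 and 3.29 ± 0.0510 CPM in WT0 with PBS (log2 2.02, SE 0.11, edgeR adjusted p = 2.78e-28). Slc43a2, by contrast with Slc43a1, was higher in WT6 (log2 0.62, SE 0.035, edgeR adjusted p = 1.2e-26). All 12 erythroid markers were lower in WT6, 11 of them at least 2-fold, and all 6 plasma cell and all 7 neutrophil markers were higher, with neutrophil sums of 310.0 to 331.8 CPM in WT6 and 66.0 to 67.7 CPM in WT0 with PBS. Of 10 macrophage markers 6 were higher and 2 lower, of 6 B cell markers 4 were higher and 1 lower, and of 6 T cell markers 3 were higher and 3 lower. None was at 0 counts, and their part was not tested.

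The genotypes were finally compared with the leukemia as the unit, 2 knock-outs (KO7 and KO3) against 2 wild types (WT6 and WT0 with PBS), on counts summed per leukemia. In this fit the coefficient of variation between leukemias was 41.9%, against 2.18% between libraries of a group, and 30 of the 43 genes were among 17226 tested. None of the 30 passed in edgeR, where 0% of all genes passed either way. Before adjustment, 0 of the 30 and 226 of all genes (1.31%) had an edgeR p under 0.05. DESeq2 on the same sums called 43 of all genes and 0 of the 30, of which 1 had an unadjusted p under 0.05. Bcat1 itself, at log2 -2.53, had adjusted p = 1 in edgeR and 0.11 in DESeq2, so the targeted gene did not pass in either tool.

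Slc7a3 had the smallest unadjusted p of the 30 in edgeR, with a log2 difference of -2.35 (SE 1.0, edgeR adjusted p = 1). It averaged 0.344 CPM in KO7, 0.653 CPM in KO3, 4.42 CPM in WT6 and 0.779 CPM in WT0 with PBS. Slc43a1 differed by 0.29 (SE 0.72), with 242 CPM in KO7 and 121 CPM in KO3, against 58.8 CPM in WT6 and 240.5 CPM in WT0 with PBS. Slc7a5 differed by -0.20 (SE 0.26) and Slc3a2 by -0.06 (SE 0.21). For Slc1a5 the difference was -0.11 (SE 0.33), for Slc38a1 -0.25 (SE 0.24), for Slc38a2 -0.01 (SE 0.19) and for Slc38a9 -0.04 (SE 0.42). Apart from Slc7a3, each difference given here was smaller than or close to its SE.

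Library by library, no transporter gene separated the genotypes. None of the 29 had all 6 knock-out libraries above, or all below, all 6 PBS wild-type libraries, where 2.97% of all genes tested were above and 3.71% below. Without the libraries numbered 2, Slc1a4 lay above and Slc7a3 below, and without those numbered 3 Slc1a4 lay above. Fewer libraries make such separation easier, and the share of all genes was not counted for these smaller sets.

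**Figure D4:**
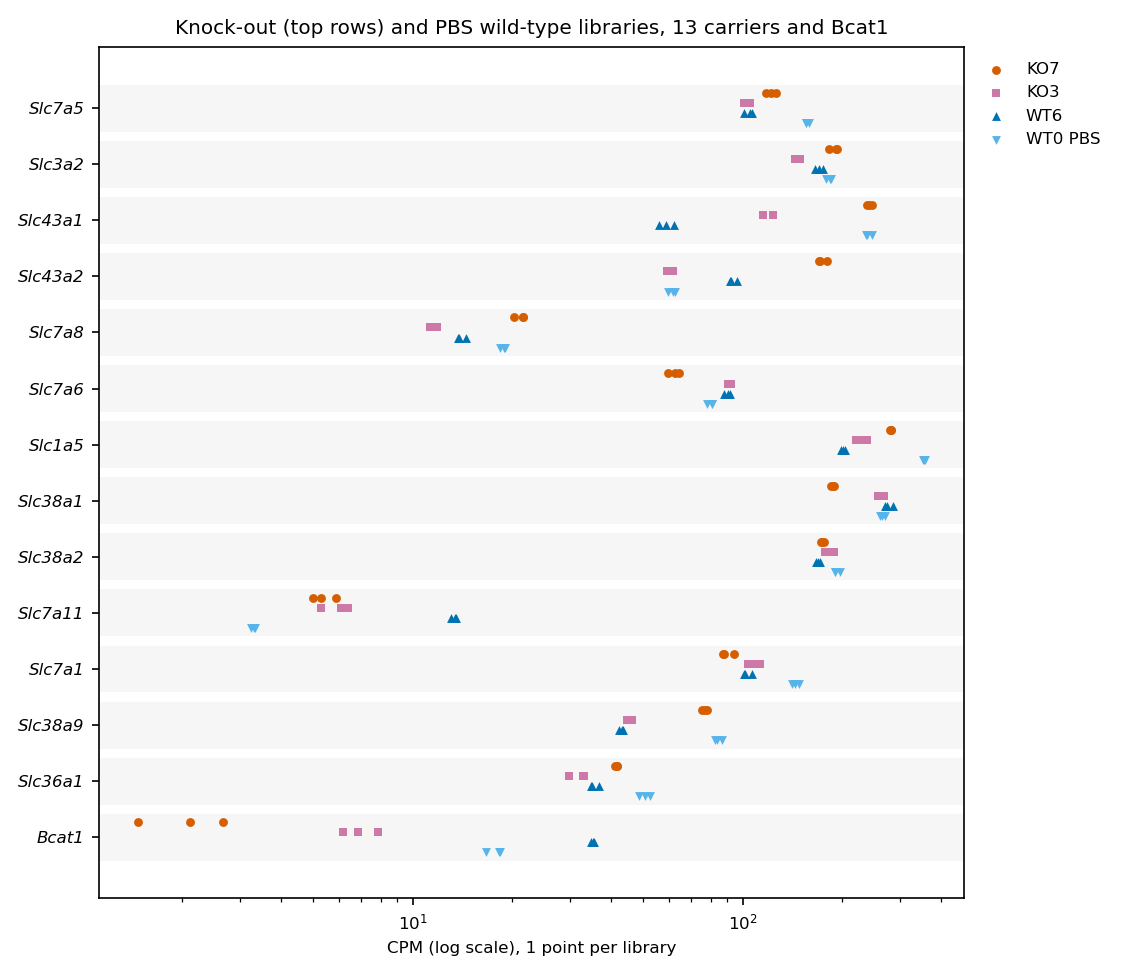
Level of 13 carriers and of Bcat1 in the knock-out leukemias KO7 and KO3 and in the PBS wild-type leukemias WT6 and WT0, in CPM on a log scale with 1 point per library. Bcat1 is lower in all 6 knock-out libraries than in all 6 wild-type libraries, and for each of the 13 carriers the genotypes overlap.

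Other amino acid carriers, outside these families, were read from a list of 31, of which 19 were tested. With ERG-245 in WT0, 8 were higher and 7 lower, and in KO7 against WT6 13 were higher and 3 lower. In KO3 5 were higher and 7 lower than in WT6, and 4 were higher and 15 lower than in KO7. In WT6 5 were higher and 11 lower than in WT0 with PBS. Of all genes tested, 65.8% were called with ERG-245 and 68.9% in KO7 against WT6. The shares were 59.7% in KO3 against WT6, 70.7% in KO3 against KO7 and 72.5% in WT6 against WT0. Shares by direction stand with each comparison above. Slc6a9, the glycine carrier that feeds heme synthesis in red cell precursors, had 148, 141 and 138 CPM in KO7, against 25.8, 26.9 and 24.7 CPM in WT6 (log2 2.46, SE 0.039, edgeR adjusted p = 7.56e-63). Slc25a38, the mitochondrial glycine carrier for heme synthesis (log2 1.33), Slc16a10, a carrier of aromatic amino acids (log2 1.24), and the imino acid carrier Slc6a20a (log2 2.13) were likewise higher in KO7. In WT6 against WT0 with PBS these 4 were lower (log2 -2.50 for Slc6a9, -1.26 for Slc25a38, -1.68 for Slc16a10 and -2.33 for Slc6a20a). All 4, like the erythroid marker sums given above, were lower in KO3 and WT6 than in the other groups, and the part of erythroid RNA was not tested. Slc6a13, a carrier of GABA and taurine, stood out with ERG-245 in WT0, at 9.51 CPM against 1.7 CPM with PBS (log2 2.45, SE 0.15, edgeR adjusted p = 1.85e-24).

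A list of 23 regulators of transporter genes, and of genes linked to them or to nutrient uptake, was read, of which 22 were tested. With ERG-245 in WT0, 8 were higher and 8 lower, among them Txnip, a brake on glucose uptake (log2 1.09), and Myc, which drives Slc7a5 and Slc1a5 in activated T cells (log2 -0.37, edgeR adjusted p = 1.32e-20). KO7 had 8 higher and 5 lower than WT6, with Atf4, the stress factor that induces Slc7a11, Slc7a5 and Slc38a2, at 296, 289 and 292 CPM in KO7 and 239, 229 and 244 CPM in WT6 (log2 0.30, SE 0.026, edgeR adjusted p = 9.85e-18). Hif1a (log2 -0.68) and Atf5 (log2 -0.99) were lower in KO7, and Tfe3 (log2 0.55) was higher. KO3 had 4 higher and 13 lower than WT6, with Myc at 291, 282 and 298 CPM in KO3 and 206, 203 and 198 CPM in WT6 (log2 0.52, SE 0.027, edgeR adjusted p = 9.37e-29). Against KO7, KO3 had 5 higher and 13 lower, with Atf4 lower (log2 -0.46) and Myc higher (log2 0.57). WT6 had 11 higher and 6 lower than WT0 with PBS, with Myc lower (log2 -0.56). The same shares of all genes called, 59.7% to 72.5%, stand beside these counts. Across leukemias, 0 genes of either list passed in edgeR, where 0% of all genes passed.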

How the data were processed

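RNA-seq libraries were made with a stranded mRNA kit, per the labels' protocols. The deposited values are raw fragment counts per gene, which the authors made with featureCounts 2.0.1, run 15 times, once per library, with a minimum overlap of 25 bases and strand setting 2, per the file headers. Genes were those of RefSeq GRCm38.p6. Trim Galore, STAR, Subread, DESeq2 and mm10 stand in the submitters' processing notes, without settings. The deposited length of merged exons (its other unit, in bases) was used for CPM per kb.

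Of 39836 lines, 39827 genes were read and 9 lines were not (broken lines, none of a transporter gene). Symbols were found for 39743 genes and not for 84, and 2 symbols that matched the naming rule but are not protein-coding were left out. Counts were filtered with filterByExpr and scaled with TMM in edgeR 4.0.16 (R 4.3.3, limma 3.58.1). A quasi-likelihood fit to all 15 libraries gave the 5 group comparisons (10 residual degrees of freedom), and a fit to counts summed per leukemia gave the genotype comparison (2 residual degrees of freedom). Calls are Benjamini-Hochberg adjusted p under 0.05 over all genes tested. The scripts were tested on simulated data. Libraries of a group differed by more than sampling noise, and the p-values rest on that spread alone, which can be technical. DESeq2 1.42.0, other scaling, filters, blocks and left-out libraries were alternatives.

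Statistics are given for 13 fixed core genes (the large neutral amino acid, glutamine, cystine, arginine and lysosomal carriers shown for the knock-outs), for up to 5 genes per direction and comparison with the largest called difference, at least 1 CPM and no overlap, and for up to 4 genes per further list. For genes chosen by the largest called difference, lack of overlap was a condition of the choice and adds no support. The share of all genes with non-overlapping libraries was not counted for the group comparisons. Other genes are named with their values where a group of carriers is described. Atf4 is given with ERG-245 because of the promoter matches shown. Cebpb, Trib3, Nupr1, Atf5 and Ddit3 were added beside it with their values known. The transporter genes, lists and tests were chosen with earlier results of these data known. Replicate numbers did not pair the libraries.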

Additional observations from a re-analysis of the deposited data

Results flagged for a closer look

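In 7 of the 29 tested genes, KO7 and KO3 changed in opposite directions against WT6, both past the edgeR threshold, and the difference between KO3 and KO7 passed too. The same held for 2530 of all 15948 genes tested (15.9%). The WT6 libraries are shared by both comparisons. The uniporter Slc43a2 had a log2 difference of -1.54 in KO3 minus KO7, with 0.90 in KO7 and -0.64 in KO3 against WT6. Slc36a4 had the opposite pattern, at 1.82 in KO3 minus KO7, with -1.55 in KO7 and 0.26 in KO3 against WT6. The exchanger Slc7a8 differed by -0.87, its relative Slc7a7 by -0.66, the lysosomal Slc36a1 by -0.38 and the heavy chain Slc3a2 by -0.36, each higher in KO7 and lower in KO3 than WT6. Slc7a6os, which is no carrier, differed by 0.23, lower in KO7 and higher in KO3 than WT6. With 3 libraries a group, no search for single outlying libraries was made.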

How the results depend on the processing

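Of the counts of called genes, 166 recomputed values stayed within 1.5 times the reported count and 5 did not. Those 5 came from leaving out libraries by number: the count at least 2-fold apart with ERG-245 ranged from 1 to 2 (2 without the libraries numbered 1 or those numbered 3), and the counts of genes that separate the genotypes from 0 to 1, higher and lower alike. Of the values of named genes, 963 kept direction and side of the threshold, 5 passed newly, 9 no longer passed and 21 changed sign. Sign changes arose only where a library number or a leukemia was left out, and none was of a called difference. With ERG-245 the range was -0.03 to 0.00 for Slc43a1 and -0.06 to 0.03 for Slc38a9, and in KO3 against WT6 it was -0.05 to 0.00 for Slc7a5. Across leukemias, leaving out 1 leukemia gave log2 ranges of -0.39 to 1.66 for Slc43a1, -0.34 to 1.18 for Slc43a2, -0.49 to 0.37 for Slc7a8, -0.44 to 0.13 for Slc7a6, -0.10 to 0.10 for Slc38a2, -0.24 to 0.10 for Slc3a2, -0.46 to 0.36 for Slc1a5, -0.46 to 0.54 for Slc38a9, -1.22 to 0.79 for Slc7a11, -0.47 to 0.14 for Slc7a5 and -0.45 to 0.07 for Slc36a1. The calls of Slc38a1 in WT6 against WT0 and in KO3 against WT6, and that of Slc36a1 in KO3 against WT6, were lost under some settings. The cause was not tested.

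Same-numbered libraries correlated at -0.153 to 0.097 in their deviations from the group means, so the numbers do not pair them. A fit with the replicate number as a block changed none of these calls. Median log2 differences of all genes moved by at most 0.01 with other scalings. Low genes such as Slc7a3, Slc1a1, Slc1a2 and Slc3a1 rest on few counts, and each genotype has 2 leukemias.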
